A study of Arabidopsis thaliana with 8 samples.

Results

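The ferric reductase oxidase genes of Arabidopsis thaliana, FRO1 to FRO8, encode membrane enzymes that pass electrons from NADPH inside the cell to ferric iron or cupric copper on the other side of the membrane. All 8 genes of the family had probes on the array, 10 probes among the 25426 loci it covers, and FRO6 and FRO7 had 2 probes each. Members were taken by name, and the probe of each gene was chosen by its processed signal, the brightest over all arrays. The family itself was selected on its measured change, since earlier results of these data showed that FRO6 and FRO7 ranked among the largest increases at 21 days. Their levels at 21 days against 2 days are therefore given as a description, without a test.

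The study measured total RNA of ecotype Columbia-0 on 8 one-colour arrays, with 2 biological replicates in each of 4 groups. The aerial part, everything above ground, was collected 21 days after germination, and whole plants, roots included, were collected 2 days after germination. Mature leaves were the 3 older leaves of 21-day plants, cotyledons left out, and young leaves were the 3 newest leaves of plants of that age. All plants were wild type and had no treatment other than 3 days of cold at 4 °C as seeds, before growth at 22 °C on GM medium under days of 16 h light, and the labels give no iron or copper concentration for the medium. The design text names a pair of comparisons, 21 days against 2 days and mature against young leaves, and the first also sets shoots without roots against whole seedlings.

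Plants reduce ferric iron before they carry it across a membrane, because the transporters take the ferrous form. FRO2 does this at the root surface, beside the iron transporter IRT1 and under the transcription factor FIT. FRO6 sits at the surface of shoot cells and FRO7 in the chloroplast envelope, where it supplies iron to photosynthetic tissue. FRO3 and FRO8 are mitochondrial, and FRO4 and FRO5 reduce copper at the root surface under the copper regulator SPL7. No role is given here for FRO1.

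Each value below is a relative signal, the processed signal of the probe as a percent of the 75th percentile of its own array, and log2 levels are the log2 of that ratio. A probe counted as detected where the scanner software called it well above background. Detection covered 66.7% to 74.6% of probes per array, and replicates correlated at 0.994 to 0.996 over the genes kept for testing, each by its brightest probe. With 2 arrays a group, the number of arrays limits the precision, and the median standard error of a log2 difference was 0.11 in both comparisons. The 21-day aerial and 2-day arrays shared 1 slide and scan session, and the mature and young leaf arrays shared the other. Both comparisons of the design thus lie within a slide, whereas in any comparison across slides the slide and the group cannot be told apart. Probe levels are compared across samples only, never between genes.

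All 8 genes passed the filter on dim probes, which required detection in both replicates of some group, and 6 were detected on all 8 arrays. FRO1 passed through the 21-day aerial and mature leaf arrays, and FRO5 through the 2-day arrays alone. Against a group in which they were undetected these genes had to differ, so such differences are given for them as bounds without a p-value.

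**Figure D1:**
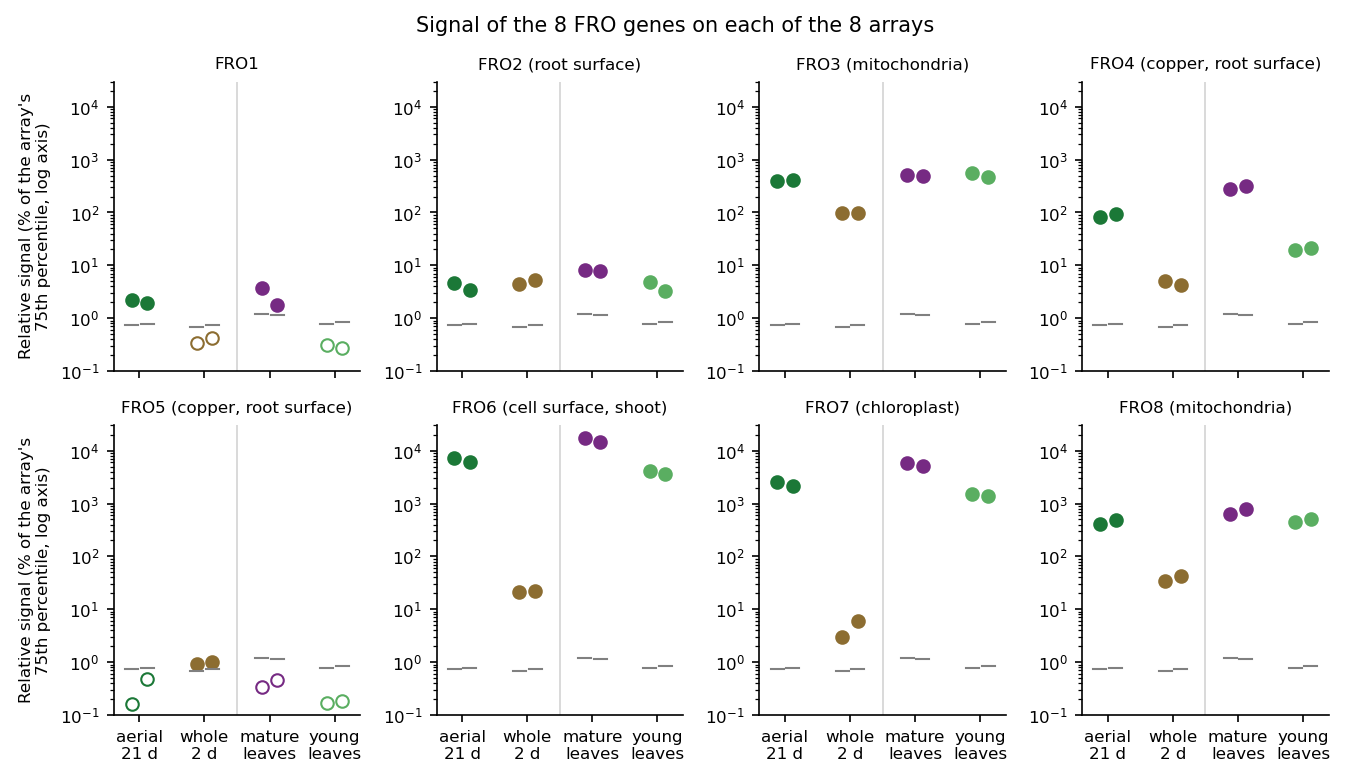
Relative signal of the brightest probe of each FRO gene on every array, in percent of the array's 75th percentile on a log axis, with the 2 replicates of a group side by side. Filled circles are well above background, open circles are not, short grey lines mark the dimmest signal that the software called detected on each array, and the vertical line separates the slides. FRO6 and FRO7 spanned the widest range, with up to 17000% and 5750% in mature leaves, against as little as 21.4% and 2.93% in 2-day plants, while FRO1 and FRO5 stayed near background.

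FRO6 (AT5G49730) and FRO7 (AT5G49740), the reductases of the shoot cell surface and the chloroplast, were high on every 21-day array and low in 2-day plants. FRO6 had a relative signal of 7340% and 6220% in the 21-day aerial part, against 21.4% and 22.4% in 2-day plants. The groups averaged 6780% ± 795 and 21.9% ± 0.706 (SD, n = 2 each), a log2 difference of 8.27 (SE 0.13) or 309-fold. FRO7 had 2600% and 2140% in the aerial part, against 2.93% and 5.89% in 2-day plants, a log2 difference of 9.15 (SE 0.32) or 568-fold. Replicates differed far less than the groups in both genes, and the widest gap between replicates was that of FRO7 in 2-day plants, whose log2 levels lay 1.01 apart. Among the 20629 genes tested, the fitted increase of FRO7 ranked 14 and that of FRO6 ranked 27.

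In mature leaves both genes reached their highest level. FRO6 had 17000% and 14500% in mature leaves, against 4040% and 3580% in young leaves. FRO7 had 5750% and 5110% in mature leaves, against 1530% and 1360% in young leaves. Neither pair of groups overlapped, and both genes rose. FRO6 was 4.13-fold higher in mature leaves (log2 2.04, SE 0.13, limma adjusted p = 3.69e-05), and FRO7 was 3.76-fold higher (log2 1.91, SE 0.32, limma adjusted p = 0.00225). The order of group means was the same in both genes, with mature leaves above the aerial part, the aerial part above young leaves, and 2-day plants last. The step between aerial part and young leaves passed the test for FRO6 (log2 0.83, limma adjusted p = 0.00479) and did not for FRO7 (log2 0.71, limma adjusted p = 0.13), with a 95% interval from -0.07 to 1.49 for FRO7. That step lies across slides, and for FRO7 it passed without either 2-day replicate (limma adjusted p = 0.0172).

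The second probe of each gene gave the same order of groups for FRO6 and for FRO7. The second FRO6 probe differed by 8.65 (log2) between the aerial part and 2-day plants and by 2.01 between mature and young leaves, close to 8.27 and 2.04 for the first. The second FRO7 probe was dim. It read 67.8% and 46.2% in the aerial part and was undetected in both 2-day samples, at 0.264% and 0.192%, so that its increase is only bounded, at least 78.8-fold. Between mature and young leaves it read 118% and 98% against 46.1% and 35.9%, a log2 difference of 1.40, smaller than the 1.91 of the brighter probe. Where a group is undetected, the bound sets the brighter group's mean against the dimmest detected signal on each array of the dimmer group. FRO6 and FRO7 are neighbours on chromosome 5, and whether a probe of the one also reads the other was not tested.

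**Figure D2:**
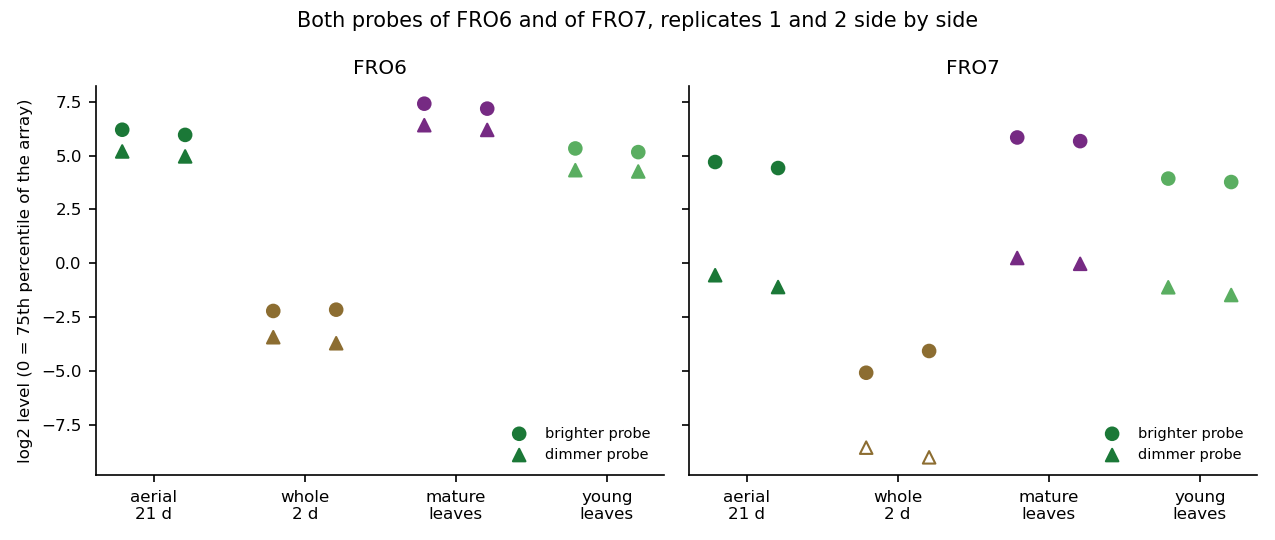
Log2 level of both probes of FRO6 and FRO7 on every array, where 0 is the 75th percentile of the array, with replicates side by side and open symbols for probes not well above background. Both probes of both genes were highest in mature leaves and lowest in 2-day plants, and the dimmer FRO7 probe was undetected on both 2-day arrays.

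FRO3 (AT1G23020) and FRO8 (AT5G50160), the mitochondrial reductases, were higher on all 21-day arrays than in 2-day plants and differed little among the leaf samples. FRO3 had 396% and 407% in the 21-day aerial part, against 97.9% and 98.7% in 2-day plants. FRO8 had 416% and 485% in the aerial part, against 34.2% and 42.2% in 2-day plants. Both rose beyond the spread of replicates. FRO3 was 4.09-fold higher (log2 2.03, SE 0.10, limma adjusted p = 1.34e-05), and FRO8 was 11.8-fold higher (log2 3.56, SE 0.16, limma adjusted p = 9.88e-06).

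Between leaf ages these mitochondrial genes gave different outcomes. FRO3 had 503% and 484% in mature leaves, against 567% and 471% in young leaves, so the groups overlapped. Its log2 difference was -0.07, with a 95% interval from -0.31 to 0.18 (limma adjusted p = 0.563). FRO8 had 638% and 785% in mature leaves, against 454% and 511% in young leaves, without overlap, and rose 1.47-fold (log2 0.55, SE 0.16, limma adjusted p = 0.0212). The FRO8 call was the least stable of those between leaf ages. It was lost without mature leaf replicate 2 (log2 0.41, limma adjusted p = 0.0986) and without young leaf replicate 1 (log2 0.47, limma adjusted p = 0.0998). The difference between FRO3 and FRO8 in their response to leaf age was not itself tested. FRO3 in the aerial part was slightly lower than in young leaves (log2 -0.36, limma adjusted p = 0.0331) and than in mature leaves (log2 -0.30, limma adjusted p = 0.0422), both across slides. Leaving out any array other than young leaf replicate 2 ended the first of these calls, and any array other than those of young leaves ended the second (limma adjusted p = 0.05 to 0.145).

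FRO2 (AT1G01580), the root surface ferric reductase, was detected on all arrays at a low level, including those of leaves. It had 4.67% and 3.49% in the 21-day aerial part, against 4.48% and 5.26% in 2-day plants, which still had roots. The groups overlapped, and the log2 difference of -0.27 did not pass the test (SE 0.21, 95% interval from -0.79 to 0.26, limma adjusted p = 0.297). FRO2 had 8.03% and 7.65% in mature leaves, against 4.76% and 3.33% in young leaves. It rose 1.97-fold there (log2 0.98, SE 0.21, limma adjusted p = 0.00721), and mature leaves held its highest level of the 4 groups. Aerial part, young leaves and 2-day plants lay within 0.28 of each other on the log2 scale, and none of the 3 pairs passed the test (limma adjusted p = 0.27 to 0.953).

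FRO1 (AT1G01590), next to FRO2 on chromosome 1, was near background throughout. It had 2.21% and 1.96% in the 21-day aerial part and was undetected in 2-day plants, at 0.346% and 0.414%, a level at least 2.93-fold higher in the aerial part. It had 3.65% and 1.74% in mature leaves and was undetected in young leaves, at 0.309% and 0.27%, a level at least 3.1-fold higher in mature leaves. FRO1 was thus detected on the 4 arrays of the aerial part and mature leaves and on no other. The mature leaf replicates lay 1.06 apart on the log2 scale, one of the widest gaps in the family, and the aerial part and mature leaves did not differ beyond it (log2 -0.28, 95% interval from -1.09 to 0.54), although without mature leaf replicate 2 the aerial part was lower (log2 -0.81, limma adjusted p = 0.0119). With normexp background correction, the fitted log2 differences of FRO1 shrank to 0.52 for the aerial part against 2-day plants and 0.87 for mature against young leaves.

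FRO4 (AT5G23980), a copper reductase described at the root surface, was measured in every sample and was highest in mature leaves. It had 80.5% and 92% in the 21-day aerial part, against 5.08% and 4.24% in 2-day plants. It had 281% and 314% in mature leaves, against 19.3% and 21.6% in young leaves. No groups overlapped in either comparison, and FRO4 rose in both. The aerial part was 18.6-fold above 2-day plants (log2 4.21, SE 0.13, limma adjusted p = 2.5e-06), which normexp background correction reduced to a log2 difference of 3.05. Mature leaves were 14.5-fold above young leaves (log2 3.86, SE 0.13, limma adjusted p = 4.82e-06), the largest fitted change between leaf ages in the family. The 4 groups stood apart in the order mature leaves, aerial part, young leaves and 2-day plants, each step passing the test, although the steps from mature leaves to aerial part (log2 difference of the aerial part -1.79), from aerial part to young leaves (2.07) and from young leaves to 2-day plants (2.14) all cross slides.

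FRO5 (AT5G23990), the neighbour of FRO4 on chromosome 5 and likewise a copper reductase of roots, was detected in 2-day plants alone. It was undetected in the 21-day aerial part, at 0.164% and 0.477%, and detected in 2-day plants, at 0.907% and 0.997%. The aerial part was at least 1.24-fold lower, which rested on signals barely above the limit of detection. The fit called FRO5 lower, but not without 2-day replicate 1, without 2-day replicate 2 or with quantile normalization, and the direction turned with normexp background correction (log2 0.06). Its fitted log2 difference of -1.76 was -0.99 without aerial replicate 1 and -2.53 without aerial replicate 2. FRO5 was undetected in mature leaves, at 0.339% and 0.461%, and in young leaves, at 0.168% and 0.181%. Between leaf ages there is therefore no fold for FRO5. Its fitted difference did not pass the test (limma adjusted p = 0.064), though it did without either aerial replicate. With FRO5 undetected in both leaf groups, neither outcome measures a change with leaf age.

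**Figure D3:**
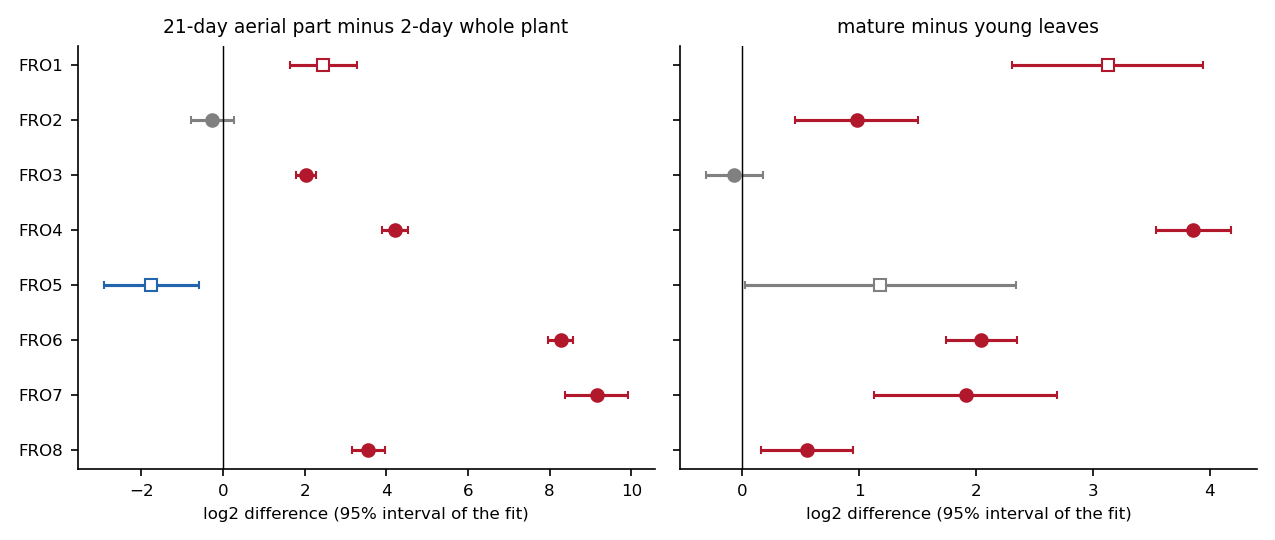
Fitted log2 difference of each FRO gene with its 95% interval, for the 21-day aerial part minus 2-day whole plants (left) and mature minus young leaves (right). Red marks genes called higher, blue lower and grey not called at an adjusted p of 0.05, open squares mark genes undetected on both arrays of at least 1 of the groups, and the colours of FRO6 and FRO7 on the left and of the open squares are a description only. FRO6 and FRO7 stood farthest right on the left panel at 8.27 and 9.15, and FRO4 on the right panel at 3.86.

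Of the 8 genes, 6 were called higher and 1 lower in the 21-day aerial part against 2-day plants, FRO6 and FRO7 by choice among those higher, and FRO2 did not pass. The background was high, since 75.1% of all genes tested were called in that comparison, 34.8% higher and 40.3% lower. Without FRO6 and FRO7, 4 of 6 genes were higher and 1 lower. Of the 4 remaining genes detected on all arrays, FRO3, FRO4 and FRO8 were higher and FRO2 did not pass, so FRO1 and FRO5, which had to differ, supplied 1 of the higher calls and the lower one. Groups did not overlap in 7 of 8 genes, against 88.5% of all genes. The median log2 change over the family was 3.01, or 2.80 with FRO1 and FRO5 at their bounds, and 2.24 or 1.79 with bounds without FRO6 and FRO7, beside -0.07 over all genes tested. Between mature and young leaves, 6 of 8 genes were called higher, FRO1 among them through the filter, and 2, FRO3 and FRO5, did not pass, where 71.3% of all genes were called, 35.8% higher and 35.5% lower. Groups did not overlap in 7 of 8 genes, against 87.6% of all genes, and the family's median change was 1.54, or 1.31 with bounds, beside 0.04 over all genes. Without FRO6 and FRO7, 4 of 6 genes were higher between leaf ages, and the median was 1.08, or 0.76 with bounds.

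The remaining pairs of groups share arrays with these comparisons and cross slides. What holds for the calls of FRO1 and FRO5 holds there too. Against 2-day plants, FRO6 and FRO7 again count as higher by choice, having been selected on their rise at 21 days. Of the 6 other members, 5 were called higher and 1 lower for mature leaves, and 3 higher and 1 lower for young leaves. Mature leaves against 2-day plants had 7 genes higher and FRO5 lower, where 84% of all genes were called (38.1% higher, 45.9% lower), with 1300-fold for FRO7, 716-fold for FRO6 and 63.9-fold for FRO4. FRO5 has no fold there, because the dimmest detected signal on the mature leaf arrays, 1.21% and 1.15%, exceeded its signal in 2-day plants. Its call there is a description without a test, and leaving out any 2-day, mature or young leaf array ended it. The FRO2 call there was lost without 2-day replicate 1 and without either mature leaf replicate (limma adjusted p = 0.0603 to 0.115). Young leaves against 2-day plants had 5 genes higher and FRO5 lower, with 72.9% of all genes called, 34.4% higher and 38.5% lower. FRO6 was 174-fold higher there, FRO7 347-fold, FRO8 12.7-fold, FRO3 5.26-fold and FRO4 4.4-fold. The aerial part against young leaves had FRO1, FRO4 and FRO6 higher and FRO3 lower, with 37.6% of all genes called, 19.9% higher and 17.7% lower. The aerial part against mature leaves had FRO2, FRO3, FRO4, FRO6, FRO7 and FRO8 lower, with 60.3% of all genes called, 31.5% higher and 28.8% lower. Leaving out 1 array ended the calls of FRO2 (aerial replicate 2, limma adjusted p = 0.053), of FRO7 (aerial replicate 2 and either mature replicate, 0.051 to 0.0898) and of FRO8 (aerial replicate 1 and mature replicate 2, 0.0726 and 0.0641).

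The scale of the mature leaf arrays bears on the leaf comparison. Their 75th percentile signal was 489.8 and 520.4 intensity units, against 874.4 and 845.3 on the young leaf arrays. Scaling on the spike-in control probes instead put the median log2 difference of all genes at -0.87, beside 0.04 in the main scaling, and the share of calls that were higher at 11.2%, beside 50.2%. Under that scaling FRO1, FRO4, FRO6 and FRO7 remained higher in mature leaves, with log2 differences of 2.22 for FRO1, 2.95 for FRO4 and 1.13 for FRO6 (FRO7 limma adjusted p = 0.00952), while FRO2 was at 0.07, FRO8 turned to -0.36 and FRO3 was called lower at -0.98. Relative to the shifted median of all genes, FRO7 stood at 1.87, FRO2 at 0.94, FRO8 at 0.51 and FRO3 at -0.11. Spike-in scaling shifts all genes of an array by the same constant, so these relative values equal those of the main scaling by construction. Normexp background correction gave 63.7% of calls higher and a median of 0.22, and median scaling gave 63.5% and 0.30.

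**Figure D4:**
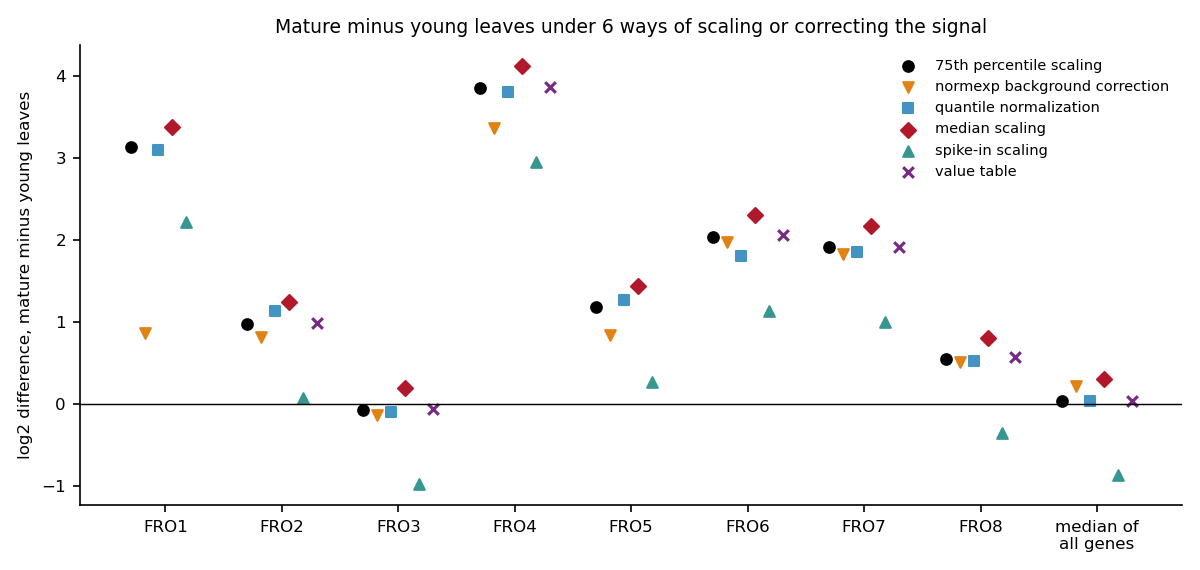
Log2 difference of each FRO gene between mature and young leaves under 6 ways of scaling or correcting the signal, with the median of all genes at the right. Spike-in scaling by construction lowered every gene by as much as the median of all genes, which it put at -0.87. It put FRO8 at -0.36, while FRO4 stayed at 2.95 or above.

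Tissue content differed between the groups along with these genes. All 11 root markers were lower in the aerial part, with a summed relative signal of 946% and 769% against 21500% and 23300% in 2-day plants. The 6 leaf mesophyll markers were all higher, with sums of 109000% and 104000% against 57400% and 68900%, without overlap. All 4 flower markers were higher, at 69.7% and 87.1% against 2.95% and 2.88%, and all 4 seed markers were lower, at 4.93% and 5.28% against 102% and 166%. Of all genes, 40.3% were lower and 34.8% higher in this comparison. Only 4 of 11 root markers were above background on each aerial array, and 1 of 4 flower markers on each 2-day array. Any marker that passed the filter through the brighter group alone had to differ, so these counts are a description. Between leaf ages, mesophyll marker sums were 145000% and 133000% in mature leaves against 109000% and 107000% in young leaves. Of these 6 markers 3 rose, where 35.8% of all genes were higher. Root markers summed to 49.8% and 45.5% in mature leaves against 44% and 33.9% in young leaves, with 2 and 2 of 11 against 5 and 3 of 11 above background. Senescing leaf markers summed to 391% and 367% in mature leaves against 7.2% and 7.44% in young leaves, almost all from ORE1, a senescence regulator, which rose by 5.77 (log2, limma adjusted p = 1.53e-06), while SAG12 and SAG13 did not reach the filter. In whole organs, fewer cells of a type and less RNA per cell cannot be told apart, and the part of any of these markers in the FRO results was not tested.

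Other genes of iron and copper handling were set beside the family in 8 lists, with 81 genes listed, 78 on the array and 71 tested. Over these lists 22 genes were higher and 34 lower in the aerial part against 2-day plants, and 29 were higher and 21 lower in mature against young leaves. Of all genes tested, 34.8% were higher and 40.3% lower in the first of these, and 35.8% higher and 35.5% lower in the second, and the counts of each list below stand against these shares. Between leaf ages, 8 listed genes were undetected in both groups. The lists were not tested as sets.

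Root iron uptake, the pathway FRO2 belongs to, was lower in the aerial part, which holds no roots. Of 8 genes tested, 6 were lower in the aerial part, with a median of -3.47, or -2.72 with bounds. Among these 6, IRT2, F6'H1 and IREG2 were detected in 2-day plants alone, passed the filter only there and had to be lower. IRT2, a root iron transporter, was at least 79.5-fold lower, and F6'H1, which makes iron-mobilising coumarins, at least 26.5-fold lower. IRT1 was undetected on all 8 arrays and was not tested. FRO2 thus did not pass the test in a comparison in which its pathway partners AHA2, ABCG37 and COSY, detected in both groups, fell. The listed genes NRAMP1 (log2 -0.22, limma adjusted p = 0.183) and MTP3 (log2 0.34, limma adjusted p = 0.614), also detected in both groups, likewise did not pass. Between leaf ages, 2 of 8 were higher, 1 of them IRT2, undetected in both groups, and 1 was lower. NRAMP1, a metal transporter, rose 2.14-fold (limma adjusted p = 0.000584), and AHA2, a proton pump, fell by 1.39 on the log2 scale (limma adjusted p = 5.41e-05).

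Regulators of the iron deficiency response were mixed. Of 17 tested, 6 were called in opposite directions in the 2 comparisons, 6 in the same direction, and 5 were not called in both. In the aerial part 10 were higher and 5 lower, where bHLH100 and bHLH101, iron deficiency transcription factors undetected at 2 days, rose by at least 218-fold (bHLH100) and 234-fold or more (bHLH101). In mature leaves 3 were higher and 10 lower than in young leaves, bHLH39 by -3.07 and bHLH100 by -3.05 (log2, limma adjusted p = 0.00134 and 0.00011). FIT, the regulator of FRO2 in roots, was lower in both, with log2 differences of -1.36 in the aerial part and -1.81 in mature leaves (limma adjusted p = 0.000112 and 4.14e-05). In mature against young leaves FIT was thus lower while FRO2 was higher.

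Genes that move iron between organs were higher in mature leaves in 7 of 9 cases and lower in 1, where 35.8% of all genes were higher and 35.5% lower, with a median of 1.12 beside 0.04 over all genes. NAS1 and NAS3 make nicotianamine, a metal chelator. NAS1 rose by 7.05 (log2, SE 0.32, limma adjusted p = 1.3e-05), and NAS3, undetected in young leaves, was at least 21.2-fold higher. OPT3, a phloem iron transporter, fell by 0.63 in mature leaves but rose by 3.03 in the aerial part against 2-day plants (log2, limma adjusted p = 0.0104 and 1.44e-05). In that comparison 3 of 9 were higher and 4 lower, with NAS2 at least 21.2-fold lower and NAS3 lower by 3.77 (log2, limma adjusted p = 1.58e-05).

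Chloroplast iron genes, which act beside FRO7, were more often lower than higher in both comparisons. Of 10 tested, 1 was higher and 6 lower in the aerial part, with a median of -0.31, and 2 were higher and 6 lower in mature leaves, with a median of -0.44. FER1, an iron storage ferritin, was 23.7-fold lower in the aerial part (log2 -4.56, limma adjusted p = 3.63e-05) and 4.44-fold higher in mature leaves (log2 2.15, limma adjusted p = 0.000915). FER2 had a log2 difference of -4.14 in the aerial part and FER3 of -2.71 in mature leaves (limma adjusted p = 3.19e-06 and 8.46e-05). PIC1, the iron permease of the inner envelope, had a log2 difference of -0.20 in the aerial part, which did not pass (limma adjusted p = 0.0561), and fell by 0.49 in mature leaves (limma adjusted p = 0.00183).

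Mitochondrial iron genes, the setting of FRO3 and FRO8, moved little in either direction. Of 6 tested, 1 was higher and 3 lower in the aerial part, with a median of -0.28, and 2 were higher and 2 lower in mature leaves, with a median of 0.05. MIT1, a mitochondrial iron importer, fell by 0.46 and by 0.58 in the aerial part and in mature leaves (log2, limma adjusted p = 0.00264 and 0.00105). ATM3, an exporter of the mitochondrial membrane, rose by 0.35 in the aerial part, and ISU1, a scaffold for iron-sulfur clusters, by 0.36 in mature leaves (log2, limma adjusted p = 0.00327 and 0.0165). FRO3 and FRO8 rose by 2.03 and 3.56 in the first of these comparisons.

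Vacuolar iron transporters were higher in 3 of 6 cases and lower in 2 in the aerial part, and higher in 3 and lower in 1 in mature leaves. VIT1, which loads iron into the vacuole, was undetected in the aerial part and at least 8.88-fold lower, and VTL5 rose by 1.41 (log2, limma adjusted p = 0.00359). In mature leaves VTL2 rose at least 3.14-fold, and VTL1 rose by 2.79 (log2, limma adjusted p = 4.06e-05).

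Copper genes, the setting of FRO4 and FRO5, were higher in 4 and lower in 4 of 9 cases in the aerial part, with a median of 0.00, and 6 of 9 rose in mature leaves, with a median of 0.60. SPL7, the regulator that FRO4 and FRO5 depend on, passed neither test, with a log2 difference of 0.00 in the aerial part (limma adjusted p = 0.988) and -0.18 in mature leaves (limma adjusted p = 0.0541). ZIP2, a metal transporter of the ZIP family, fell by 3.77 in the aerial part and rose by 1.32 in mature leaves (log2, limma adjusted p = 1.04e-06 and 5.23e-05). CSD1, a copper and zinc superoxide dismutase, fell by 2.90 in the aerial part, and COPT1, a copper importer, rose by 0.98 in mature leaves (log2, limma adjusted p = 1.69e-05 and 0.00232). The rise of FRO4 in mature leaves, 3.86, exceeded that of each of these.

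The NADPH oxidases of the RBOH family are structural relatives of the FRO proteins that reduce oxygen. Of 6 tested, 4 were lower in the aerial part, with a median of -3.10, or -2.17 with bounds, where 40.3% of all genes were lower. RBOHB and RBOHG were undetected in the aerial part and detected in 2-day plants, and RBOHB was at least 5.82-fold lower in the aerial part. Any gene that passed the filter through the 2-day arrays alone had to be lower, and 3 of the 6 were undetected in both leaf groups. The count of 4 lower is therefore a description. In mature leaves 4 of 6 were called higher, but 2 of these were undetected in both groups. RBOHD and RBOHF, detected in both, rose by 0.93 and 0.43 (log2, limma adjusted p = 0.00141 and 0.0034).

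**Figure D5:**
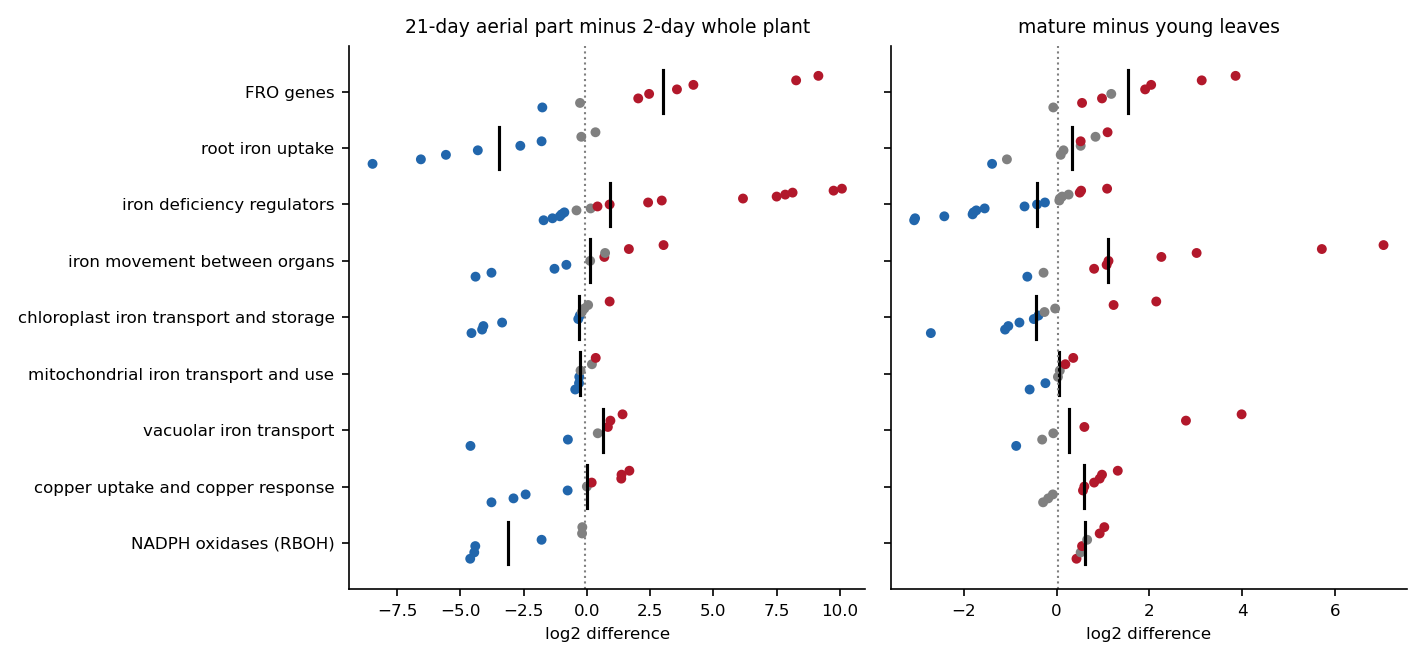
Log2 differences of the FRO genes and of 8 lists of iron, copper and RBOH genes, for the 21-day aerial part minus 2-day whole plants (left) and mature minus young leaves (right). Each point is a gene tested, red called higher, blue lower and grey not called at an adjusted p of 0.05, the black bar is the list's median and the dotted line the median of all genes. The FRO medians were 3.01 and 1.54, root iron uptake stood at -3.47 on the left, and iron movement between organs at 1.12 on the right.

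Within the family, FRO6 and FRO7 had the most similar profiles. Over the 8 arrays, each centred on its own mean, they differed by a root mean square of 0.46 (log2), with a Pearson correlation of 0.998 that mostly reflects the gap between 2-day and 21-day arrays. Only 3 of 20628 other genes lay closer to FRO6 than FRO7 did. The other neighbouring pairs were less alike, with correlations of 0.506 for FRO1 and FRO2 and -0.369 for FRO4 and FRO5. The mitochondrial pair FRO3 and FRO8, which lie on different chromosomes, correlated at 0.982 with a root mean square difference of 0.73. These 8 arrays share slides and the 2-day group, so the values are descriptions without a test.

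Across all genes, the nearest profiles to FRO6 were those of CYP71A22, AT2G39850 and CYP71B24, at root mean square differences of 0.22, 0.30 and 0.39. FRO7 was nearest to CORI3 (0.28), RK2 (0.37) and AT2G39850 (0.45), the last shared with FRO6. FRO3 was nearest to DFL2 (0.07), AT3G20270 (0.13) and AT2G25780 (0.13), and FRO8 to BEL1 (0.12), AT1G70820 (0.13) and SNC4 (0.14). FRO4 was nearest to AT5G54710 (0.28), PP2-A13 (0.30) and PWD (0.30). FRO2, which varied by 1.27 in all, was nearest to AT4G14358 (0.16), ATSK12 (0.17) and SAMDC (0.17). FRO1 lay 0.34 from FMO GS-OX3, 0.37 from ERF1 and 0.38 from SULTR3;5, and FRO5 lay 0.32 from AT4G31615, 0.33 from ADR1 and 0.34 from MSL4. A small difference is easier to reach for a gene that varied little, as FRO2 did, than for FRO7, which varied by 10.94.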

How the data were processed

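Total RNA of 8 samples was labelled with Cy3 and hybridised to arrays of Agilent design 021169. Per the file headers, the authors read them with Feature Extraction 10.10.1.1 (protocol GE1_1010_Sep10) on a grid of build TAIR10. The deposited intensity values are linear. The scanner software had removed background and spatial trends from the processed signal of each array, without scaling arrays to each other. The deposited value table is that signal times 1 factor per array, 2.08 to 4.44, empty where not well above background, and served as an alternative.

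Outlier spots, 5 to 13 an array, were dropped, repeated spots averaged, and log2 signal was taken minus the array's 75th percentile over non-control probes. Of 43603 probes, those detected (well above background) in both replicates of any group were kept, and the brightest stood for its locus, which left 20629 genes. Transcript accessions were named through a RefSeq gene table of a later assembly release, used for names and gene order only. limma 3.58.1 (R 4.3.3) fitted 1 mean per group to all 8 arrays by lmFit, with moderated 2-sided tests by eBayes (4 residual and 1.9 prior degrees of freedom), with Benjamini-Hochberg adjustment over all genes and a threshold of 0.05. Of the fitted values 12 were missing, none in a FRO gene. The scripts were tested on simulated data. Normexp correction (offset 50) used the median spot signal, because the files hold no mean signal.

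The members and gene lists were chosen with earlier results of these data known. Named genes are the FRO genes, a few fixed iron and copper genes, the 2 largest called changes per list and comparison, and the 3 nearest profiles of each FRO gene by root mean square difference. Labels share replicate numbers between groups but do not say that they pair samples. Alternatives covered background correction, scaling, filters, probe choice, value source, variance model, a fold minimum, a replicate block and each array left out.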

Additional observations from a re-analysis of the deposited data

How the results depend on the processing

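In 22 alternatives, 8 of them leaving out 1 array each, FRO3, FRO4 and FRO8 kept their call and direction in the aerial part against 2-day plants, and FRO4, FRO6 and FRO7 in mature against young leaves, wherever a value could be had. The cause of the changes below was not tested, except that detection on all arrays and the value table leave no value for FRO5.

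With normexp background correction, FRO5 turned to 0.06 (aerial part against 2-day plants) and 0.78 (mature leaves against 2-day plants). With spike-in scaling, FRO8 turned to -0.36 in mature against young leaves and to 0.09 in the aerial part against mature leaves, FRO2 to -0.33 in mature leaves against 2-day plants, and FRO3 to 0.45 in the aerial part against mature leaves.

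The single FRO5 call lower fell to 0 in the aerial part against 2-day plants with normexp, quantile normalization, detection on all arrays and the value table. It fell to 0 in young leaves against 2-day plants with normexp, detection on all arrays and the value table, and in mature leaves against 2-day plants with these, quantile normalization, median scaling and no filter. The FRO3 call in the aerial part against young leaves fell to 0 with quantile normalization, the value table, a fit of the compared arrays and a fold of at least 2. Spike-in scaling gave 1 FRO gene lower in mature against young leaves, and 1 higher and 2 lower in the aerial part against mature leaves. It gave 8 listed genes higher and 42 lower in mature against young leaves. Of all 20629 genes, that scaling called 1830 higher and 14444 lower in mature against young leaves. In the aerial part against mature leaves it called 14473 of all genes higher and 464 lower. A fold of at least 2 left 14 listed genes higher in the aerial part against 2-day plants. In mature against young leaves it left 14 listed genes higher and 11 lower. It left 3 FRO genes lower in the aerial part against mature leaves. Of all 20629 genes, 3104 were higher by that rule in the aerial part against 2-day plants. By the same rule 2816 were higher and 3824 lower in mature against young leaves, and 926 lower in the aerial part against mature leaves.

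Leaving out each array in turn, the FRO counts ranged from 6 to 6 higher and 0 to 1 lower (aerial part against 2-day plants), 5 to 7 higher and 0 to 0 lower (mature against young), 5 to 5 higher and 1 to 2 lower (young against 2-day), 6 to 7 higher and 0 to 1 lower (mature against 2-day), 3 to 4 higher and 0 to 1 lower (aerial against young) and 0 to 0 higher and 4 to 6 lower (aerial against mature). Listed genes ranged from 18 to 24 higher and 32 to 34 lower, and in mature against young leaves from 24 to 30 higher and 16 to 20 lower. Where an array was left out, the lone sample was assumed to vary like the other groups.

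With the replicate block, FRO5 in mature against young leaves passed (log2 1.18, limma adjusted p = 0.0382), undetected in both, and no other FRO call changed. The deviations of same-numbered arrays correlated at 0.35, 0.31 and 0.25 between the 3 pairs of 21-day groups, mature and young leaves at 0.25, and at -0.06 to -0.01 with the 2-day group. Same-numbered 21-day arrays thus varied together, but the labels do not state a pairing and there are only 2 numbers. A slide block was not run, because each slide holds whole groups. Dim signals limit FRO1 and FRO5, whose folds are bounds.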

Other observations

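Values follow for genes next to a FRO gene in chromosome order, chosen by position. GH9A1, a cellulase beside FRO6, had a log2 difference of -0.04 between the aerial part and 2-day plants (limma adjusted p = 0.652) and of 0.13 between mature and young leaves (limma adjusted p = 0.173). AT5G49750, on the far side of FRO7, was undetected in all samples. Beside FRO8, AT5G50150 rose by 0.80 and AT5G50170 fell by 0.39 in the aerial part (log2, limma adjusted p = 0.000347 and 0.00966). Beside FRO3, LPR1, a multicopper oxidase, had a log2 difference of -0.13 in the aerial part (limma adjusted p = 0.567), and AT1G23030 fell by 1.32 (limma adjusted p = 8.81e-05).

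Some neighbours differed in direction from their FRO gene between leaf ages. CYP86A4, a cytochrome P450 of cutin synthesis next to FRO1, was undetected in mature leaves and at least 49.5-fold lower there than in young leaves (limma adjusted p = 2.06e-06), whereas FRO1 was at least 3.1-fold higher. AT1G01570, beside FRO2, fell by 1.13 in mature leaves (log2, limma adjusted p = 0.000578), whereas FRO2 rose by 0.98, and in the aerial part AT1G01570 rose by 0.56 (limma adjusted p = 0.0105). AT5G24000, beside FRO5, fell by 1.14 in mature leaves and by 0.41 in the aerial part (log2, limma adjusted p = 5.15e-05 and 0.0034). In mature leaves AT5G50150 rose by 0.30, AT5G50170 fell by 0.49, LPR1 rose by 0.62 and AT1G23030 fell by 0.58 (log2, limma adjusted p = 0.0232, 0.00421, 0.0313 and 0.00337), and CYP86A4 rose by 0.72 in the aerial part (limma adjusted p = 0.00599). AT5G23970, beside FRO4, did not reach the filter.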
